A study of Mus musculus with 3 samples.

Results

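Back skin of interleukin-10 (Il10) knockout mice was compared with back skin of wild-type mice on 2 of the 3 arrays of the series, 1 for each genotype. The wild-type (WT) array held C57BL/6J skin, and the knockout (KO) array held skin of mice that lack a functional Il10 gene. Of 18193 genes with a probe set that names 1 gene symbol, 13097 reached a signal of 40 on both arrays and were given a ratio, KO over WT. All mice were male, were housed singly under a 12 h light-dark cycle, and received an AIN-93-based diet for 28 weeks from 4 weeks of age. The dermal white adipose tissue was taken off the skin before RNA was extracted. The KO mice were bred from B6.129P2-IL-10<tm1Cgn>/J males and C57BL/6J females, by mating heterozygous daughters to homozygous KO males. The sources used here do not say where the WT mice were bred, and the part of breeding in the differences was not tested. There were 5 WT and 7 KO mice, and each array read 1 pool of RNA, so there are no replicates: each value below is 1 signal per genotype, and no test and no p-value can be given.

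Interleukin-10 is a cytokine that restrains inflammation by acting through its receptor, Jak1 and Stat3 on macrophages and other immune cells. Mice without it are best known for colitis, and they have also been used as a model of low-grade inflammation and ageing. Skin adds a complication of its own, since hair follicles pass through phases of growth, regression and rest, and a growing follicle brings with it large amounts of keratin, keratin-associated protein and pigment mRNA. The sources used here do not record the phase of the follicles in these samples.

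Both arrays had been scaled to the same trimmed mean, and 68.3% of probe sets in WT and 65.3% in KO reached 40. The 3′ to 5′ signal ratio of the actin control probe sets was 1.59 in WT and 1.51 in KO, and that of Gapdh 0.728 and 0.703. Skin markers were strong in both arrays: the basal keratin Krt14 had signals of 20926 and 21861, and the suprabasal keratin Krt10 29571 and 33694, in WT and KO. All 14 housekeeping reference genes were within the limits of 1.5-fold, with log2 ratios from -0.18 for Polr2a to 0.21 for B2m. The targeted gene itself, Il10, read 17.02 in WT and 679.9 in KO. Its single probe set was therefore brighter in the array labelled KO. It read 401 in the third array of the series, labelled KO mice with another diet. The sources used here do not say which part of the altered allele the probes match, so this signal does not check the labels, and the arrays are called WT and KO as labelled.

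With a limit of 1.5-fold in either direction, 1151 genes were higher in KO (8.79% of those with a ratio) and 1371 were lower (10.5%). These percentages are the background for every list below. The middle of the distribution scarcely moved, with a median log2 ratio of 0.02, but the tails were unequal. At 4-fold or more, 28 genes were higher and 126 lower, and at 10-fold or more 2 and 49. Among genes whose chosen probe set reached 40 in 1 array alone, 55 had a WT signal of at least 400 and 2 (Ttr and Il10) had such a signal in KO. Of these, Ttr also had 2 other probe sets that reached 40 in both arrays. After subtraction of the median the shares became 8.21% higher and 11.1% lower. Of all called genes 45.6% were higher as deposited, against 59.7% after quantile normalization and 54.3% after cyclic loess, so which direction held more genes depended on the scaling. As a guide to technical error, 2 probe sets of the same gene gave log2 ratios with an SD of 0.32 over 6178 genes. The SD was 0.43 where the weaker probe set read 40 to 200 and 0.15 where it read over 1000. This spread covers probes and not mice.

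**Figure D1:**
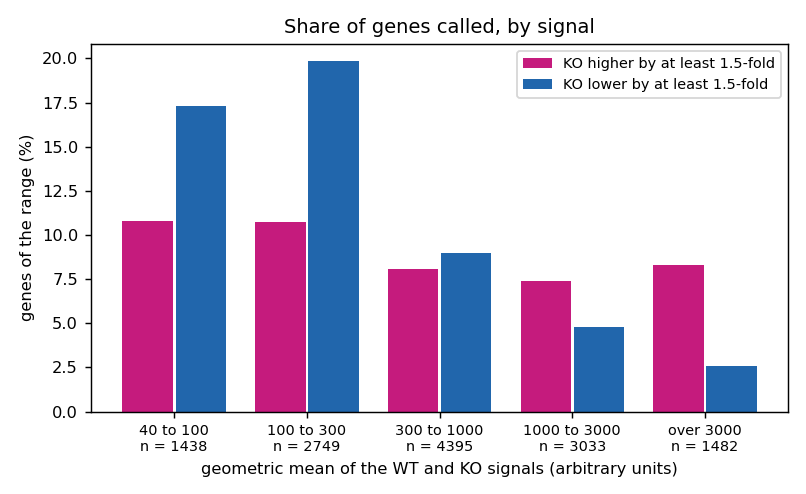
Share of genes at least 1.5-fold higher (magenta) or lower (blue) in KO than in WT, in percent of the genes of each range of signal (geometric mean of both arrays, arbitrary units; n is the number of genes). Among weak genes (100 to 300) 19.8% were lower and 10.7% higher, whereas among genes over 3000 2.56% were lower and 8.30% higher.

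The direction of the calls shifted with signal. Of the 2749 genes with a mean signal of 100 to 300, 545 were lower and 295 higher in KO, while of the 1482 genes over 3000, 38 were lower and 123 higher. Median log2 ratios went from -0.11 in the weakest range to 0.12 in the strongest. The part of this slope in the list counts was not tested. Cyclic loess normalization, which removes such a slope, gave 1340 genes higher and 1130 lower. It moved the medians of all 70 lists by less than the technical SD of 0.32. The medians of the signal ranges differed by less than that SD too, so this comparison cannot show the part of the slope.

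The genes that build the hair fiber and its inner root sheath gave little signal in the KO array. Of 64 such genes measured, 59 had a signal of at least 1000 in WT and 3 (Gata3, Krt32 and Krt75) in KO. Together they made up 2.94% of the summed signal of all genes in WT and 0.0539% in KO. Ratios could be formed for 28 of them, of which 26 were lower, and the other 36 reached 40 in WT alone. Krtap22-2, a keratin-associated protein of the fiber, read 22914 in WT and 37.7 in KO, a difference of at least 573-fold against the limit of 40. Trichohyalin (Tchh), which hardens the inner root sheath, read 24309 and 279, and the enzymes Padi3 and Padi1, which convert its arginines to citrulline, read 6189 and 1406 in WT and 20.99 and 27.01 in KO. The exceptions within these lists were Gata3, a transcription factor that the epidermis also expresses, at 2751 and 3472, and Krt32, a cuticle keratin, at 2323 and 1631. In bulk RNA, fewer cells of a type and less RNA per cell cannot be told apart. Many of these genes lie in families of near-identical copies, so values of single Krtap genes may include reads of their neighbours.

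**Figure D2:**
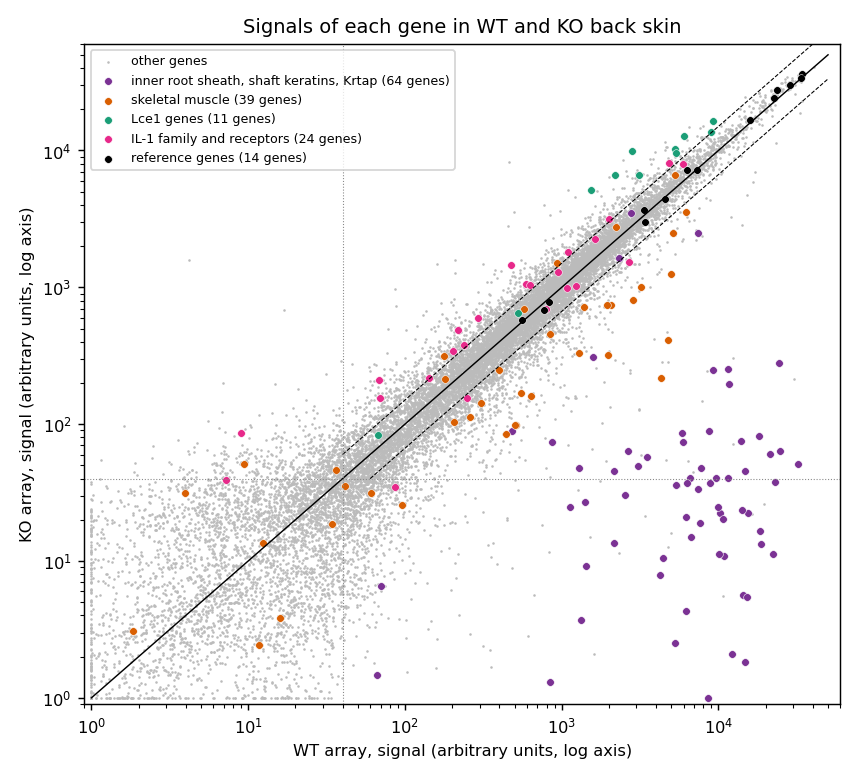
Signal of each gene in the WT (horizontal) and KO (vertical) array, both on log axes in arbitrary units, with signals under 1 drawn at 1. The solid line marks equality, the dashed lines 1.5-fold and the dotted lines the limit of 40. The 64 inner root sheath, shaft keratin and Krtap genes (purple) lie below the line except for Gata3. Most of the 39 skeletal muscle genes (orange) also lie below it. The 11 Lce1 genes (green) and most of the 24 genes of the IL-1 family and receptor list (pink) lie above it, and the 14 reference genes (black) on or near it.

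In the order of the annotation these genes lay in stretches, each defined as neighbouring measured genes that all passed the limits given next. On chromosome 16, 20 neighbouring measured genes from Krtap14 to Krtap11-1 were each at least 10-fold lower or were under 40 in KO from at least 400 in WT. The same held for 17 neighbours from Krtap3-1 to Krt31 and 4 from Krt25 to Krt28 on chromosome 11, and for 5 from Krt81 to Krt82 on chromosome 15. Several predicted genes that are named by number alone sat inside these stretches, and so passed the same limits by definition. Among them were Gm10228 (16385 and 22.2) and Gm11559 (10683 and 5.51).

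Their promoters also had a sequence in common. The hexamer TATAAA, on either strand of the window from 250 bases before to 50 after the annotated start (RefSeq, GRCm38.p6), was found in 29 of 36 Krtap promoters (80.6%) and 8 of 13 inner root sheath promoters (61.5%). It was in 7.91% of the 10516 genes with a ratio and a listed promoter, and in 14.2% of all promoters of the table. A match that began 40 to 20 bases before the start, the usual place of a TATA box, occurred in 21 Krtap promoters (58.3%) and in 2.03% of genes with a ratio. The genes called lower by 1.5-fold held TATAAA in 10.6% of promoters and those called higher in 13.1%. The 150 bases before the start are given for 5 genes of the fiber and inner root sheath, with each TATAAA in capitals; every sequence is read 5′ to 3′ on the gene's own strand.
Krt25, chr11:99322952-99323101, reverse strand: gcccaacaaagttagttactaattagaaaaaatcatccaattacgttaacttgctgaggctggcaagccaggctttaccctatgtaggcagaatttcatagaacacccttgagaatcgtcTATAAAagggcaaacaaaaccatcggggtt
Krt27, chr11:99351119-99351268, reverse strand: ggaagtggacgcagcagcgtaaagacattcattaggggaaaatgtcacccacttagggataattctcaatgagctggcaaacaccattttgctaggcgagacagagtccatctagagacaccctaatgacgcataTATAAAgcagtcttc
Krt71, chr15:101743098-101743247, reverse strand: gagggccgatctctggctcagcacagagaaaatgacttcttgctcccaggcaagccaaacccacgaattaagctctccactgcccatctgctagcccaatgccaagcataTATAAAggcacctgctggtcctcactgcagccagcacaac
Krtap8-1, chr16:89487953-89488102, reverse strand: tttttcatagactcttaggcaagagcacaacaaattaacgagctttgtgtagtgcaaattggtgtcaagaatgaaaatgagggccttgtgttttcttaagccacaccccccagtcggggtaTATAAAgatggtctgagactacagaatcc
Krtap6-5, chr16:89047900-89048049, reverse strand: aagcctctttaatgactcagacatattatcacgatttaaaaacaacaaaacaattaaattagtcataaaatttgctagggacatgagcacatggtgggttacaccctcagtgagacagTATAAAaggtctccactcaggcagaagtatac
In these 5 promoters the hexamer began 30, 15, 40, 29 and 32 bases before the start. Krt25 read 31928 and 51.5, Krt27 21299.9 and 60.7, and Krt71, the partner keratin of both in the inner root sheath, 18156 and 81.5. Krtap8-1 read 24756 and 63.2, and Krtap6-5 18609 and 13.4, again WT first and KO second, as in all pairs of signals below. A match describes these letters and does not show a site in use.

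Follicle genes outside the fiber differed by compartment. Transcription factors and signals of the hair matrix, the dividing cells at the base of a growing follicle, were mostly lower, 14 of the 22 with a ratio, and 6 more reached 40 in WT alone. Dlx3 read 1213 and 159, its relative Dlx2 404 and 61.4, and Msx2 1023 and 137. Hoxc13, which drives hair keratin genes, read 1650.2 and 259. Gprc5d, a receptor of hair-keratinizing cells, was at 5615 in WT and 35.3 in KO. The single matrix gene called higher was Bmp2 (1272 and 2163). Genes of the bulge and resting follicle, where stem cells reside, were split, with 4 of 20 higher and 4 lower. Krt15, the bulge keratin, read 25179.8 and 30938 and was not called. Fgf18, a growth factor of resting follicles, was higher (165 and 407, log2 ratio 1.30), as was the stem cell receptor Lgr6 (788 and 1255). Lgr5, which marks the lower bulge and hair germ, was lower (1825 and 895, log2 ratio -1.03), although another of its probe sets gave a ratio close to 1. The dermal papilla and sheath list had 4 of 16 members higher, among them Igfbp3 (3812 and 8708), and 2 lower, and its median log2 ratio was -0.03. Corin, a protease of the papilla, was read in WT alone (348 and 2.24). In that list 2 genes reached 40 in WT alone and 2 in KO alone.

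Beyond the lists, 14 of the 49 genes at least 10-fold lower and 16 of the 55 with at least 400 in WT and under 40 in KO belonged to no list. They included predicted genes inside the Krtap stretches above, such as Gm10228 and Gm11559, so not all of them lay apart from the fiber genes. Prr9, a proline-rich gene of the epidermal differentiation complex, had signals of 30150.2 and 215, and Tchhl1, a relative of trichohyalin, 4971 and 15.9. Lrrc15, a leucine-rich repeat membrane protein, read 6366 and 53.5. Fbp1, the gluconeogenic enzyme fructose-bisphosphatase, was at 3215 and 59.7. Carbonic anhydrase 6 (Car6), known as a secreted enzyme, was at 8395 and 244. The beta-crystallin Cryba4, best known from the lens, read 1518 and 15.01. S100a3, a calcium-binding protein of the hair cuticle, was in a list and read 12353 and 72.1. All of these signals were strong in WT and weak in KO.

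Lists of epidermal genes differed far less by their medians than those of the hair fiber, and in several the called genes were more often higher. Exceptions were junction genes, with 3 higher and 5 lower, and stress keratins, with 0 higher and 3 lower. Back skin was read in bulk, so these values are not of the interfollicular epidermis alone. Of 9 suprabasal keratins with a ratio 7 were not called, such as Krt10, given above, and Krt77 (24256 and 26794). Krt78 was higher (1187 and 2072) and Krt2 lower (131 and 84.3), and the basal Krt5 was not called (19214 and 23513). In the basal layer and hemidesmosome list, the anchors of the epidermis to its basement membrane, 6 of 15 genes were higher and none lower, with a median log2 ratio of 0.44. Lamb3, a chain of laminin 332, read 1342 and 2814. The integrin pair Itga6 (3874 and 6457) and Itgb4 (819 and 1289) was higher in KO, as was the hemidesmosomal collagen Col17a1 (6201 and 9758). Dystonin (Dst) read 5958 and 13138, but its probe sets disagreed, with log2 ratios from 0.04 to 1.14.

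The cornified envelope, the protein shell of dead surface cells, divided by gene family. Of 11 late cornified envelope 1 (Lce1) genes measured, 9 were higher in KO and none lower, with log2 ratios from 0.30 to 1.82. Lce1i read 2790.1 and 9874, Lce1h 1548 and 5160.2, and Lce1f 2175 and 6666. The Lce1 genes are alike in sequence, so their probe sets may share transcripts. Hornerin (Hrnr), a filaggrin-like protein, was higher as well (2815 and 6257), while filaggrin itself (Flg) was not called (2139 and 1795). The small proline-rich genes, which serve the same shell and are induced in wounded skin, were lower where they were strong. Sprr1a read 17227 and 7000.0, Sprr2h 1798 and 102, and Sprr1b 482 and 8.87. Of the 9 Sprr genes measured, 2 had a ratio and both were lower, 3 reached 40 in WT alone, 2 in KO alone (Sprr2d at 73.97 and Sprr2k at 126), and 2 in neither. Across the whole list 11 of 38 genes were higher and 5 lower.

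The promoters of both families were also searched. The AP-1 heptamer TGACTCA was present on either strand in 6 of 8 Sprr promoters and in 0 of 10 Lce1 promoters, against 3.92% of genes with a ratio and 5.17% of all promoters. Its share was 6.51% of promoters of all genes called higher and 5.31% of those called lower. A representative of each family is shown over the same 150 bases, with AP-1 heptamers in capitals (TGAGTCA is the same site read from the opposite strand).
Sprr1a, chr3:92485882-92486031, reverse strand: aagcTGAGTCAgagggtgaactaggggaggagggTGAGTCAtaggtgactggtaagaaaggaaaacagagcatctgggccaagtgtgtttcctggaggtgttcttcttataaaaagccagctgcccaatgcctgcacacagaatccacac
Lce1i, chr3:92778900-92779049, reverse strand: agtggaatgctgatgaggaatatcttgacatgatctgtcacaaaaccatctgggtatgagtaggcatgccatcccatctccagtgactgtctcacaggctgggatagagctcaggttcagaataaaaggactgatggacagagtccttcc
Sprr1a carried 2 copies here, beginning 146 and 116 bases before the start, and Lce1i carried none in this window, which says nothing about sites farther away. Both genes lie on chromosome 3.

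Genes for the lipids and proteases of the barrier were also more often higher than lower. Of 38 barrier lipid genes with a ratio, 11 were higher and 1 lower, with a median log2 ratio of 0.36. Alox12b, the lipoxygenase that prepares ceramides for attachment to the envelope, read 277 and 637. Sptlc3, a subunit of the enzyme that starts sphingolipid synthesis, read 1865 and 3968, and Sgpp2, a sphingosine phosphate phosphatase, 291 and 918. Alox12e, an epidermal lipoxygenase, was the exception (5977 and 2250.0). Of 23 kallikreins, other serine proteases and inhibitors, 9 were higher and 2 lower. The inhibitor Spink5, which restrains kallikreins at the skin surface, read 7617 and 14576, and Klk5, one of its targets, 2843 and 4567. The 2 lower genes were matriptase (St14, 2375 and 1382) and its inhibitor Spint1 (2279 and 1454), a protease and inhibitor pair.

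Among 30 junction genes 22 were not called, and the largest differences were in gap junction genes. Desmoplakin (Dsp) read 28176 and 29589, and Perp 25077 and 28201. The connexins Gjb2 and Gjb6, partners in gap junctions, were at 7891 and 1921 in WT and at 148 and 53.6 in KO, 53.4-fold and 35.9-fold lower. Gja1, the most abundant connexin of the list, read 23323 and 11275, but its probe sets ran from -1.89 to 0.26 on the log2 scale. The connexin Gjb5 and claudin Cldn23 were higher (1135 and 2468, 1324 and 2715). Among keratins of stressed or simple epithelia none with a ratio was higher: Krt6a read 12325 and 10525, Krt16 1443 and 653, and Krt18 311 and 52.8. Krt6b, a close copy of Krt6a, was the exception, at 31.4 and 231. Sebaceous gland genes were mostly within the limits, with 17 of 21 not called. Acaa1b, a peroxisomal thiolase, stood apart (313 and 1492, log2 ratio 2.25).

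**Figure D3:**
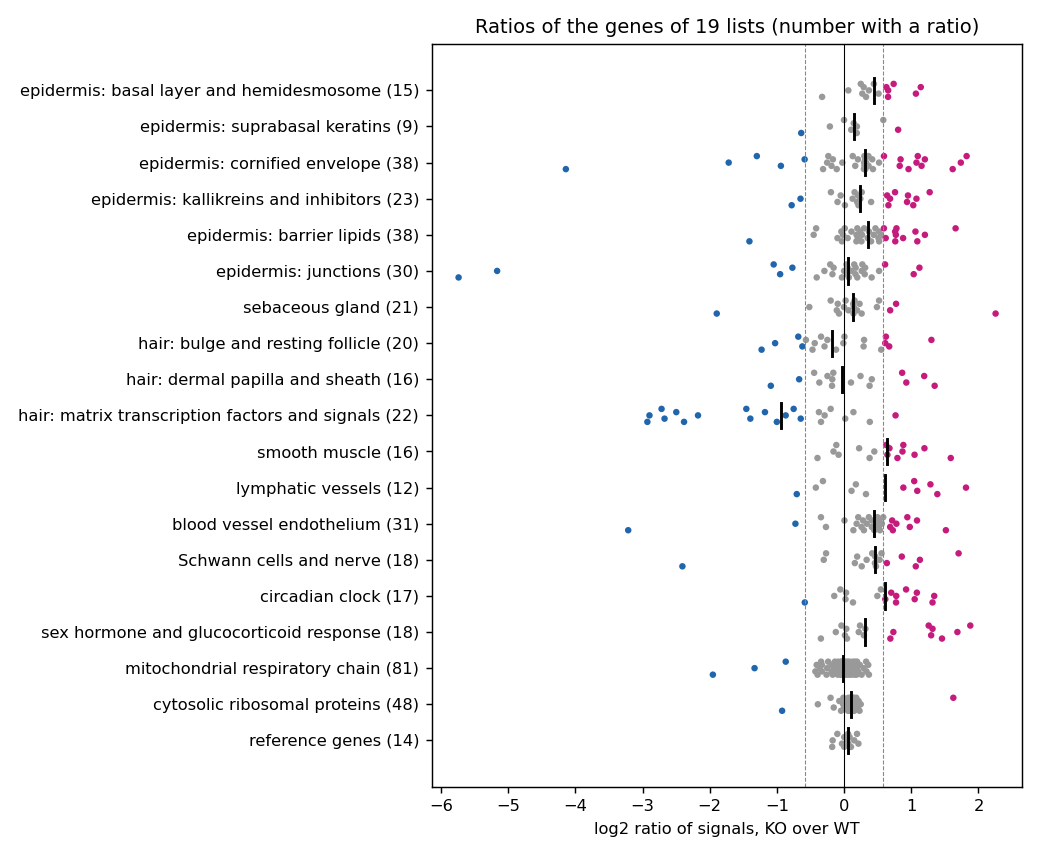
Log2 ratio of signals, KO over WT, for each gene with a ratio in 19 lists (numbers in parentheses). Points are genes, magenta when at least 1.5-fold higher, blue when at least 1.5-fold lower and grey between, short black bars are list medians, and dashed lines mark 1.5-fold. Medians ran from -0.94 for hair matrix genes to 0.64 for smooth muscle, and reference genes stayed between -0.18 and 0.21.

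Cytokines of epithelial origin were often higher in KO. In the list of IL-1 family, receptor and related genes, 13 of 21 with a ratio were higher in KO and 2 lower, with a median log2 ratio of 0.66. The IL-36 cytokines, keratinocyte products named Il1f6, Il1f8 and Il1f9 in the annotation, were all higher. Il1f9 (IL-36 gamma) read 473 and 1453, Il1f6 (IL-36 alpha) 68.5 and 209, and Il1f8 (IL-36 beta) 292 and 596. Il1a and Il1b, the classical agonists, were at 68.99 and 218 in WT and at 155 and 486 in KO. Their decoy receptor Il1r2 was higher too (4835 and 8050.0), while the signaling receptor Il1r1 (788 and 697) and the antagonist Il1rn (1236 and 1028) were not called. The 2 lower genes of the list, Gsdma (2669 and 1529) and Gsdma2 (250.2 and 156), are gasdermins, pore-forming proteins of skin, and not IL-1 cytokines or receptors.

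In the IL-10 family list, 4 of 14 genes with a ratio were higher and none lower. Il22ra2, the soluble decoy that binds IL-22, read 462 and 8229.6, the highest ratio among chosen probe sets with 40 in both arrays. Il20, a keratinocyte cytokine, read 56.8 and 134, both weak signals, and the shared receptor chain Il10rb 761 and 1251, although another Il10rb probe set gave a log2 ratio of -0.21. Il10ra, the chain specific to IL-10, read 71.2 and 104 and was not called, like Stat3 (1687 and 2386, with -0.47 as the log2 ratio of another probe set) and Jak1 (2225 and 3125), which carry its signal. The feedback inhibitor Socs3 was higher (577 and 1391) and Socs1 was not (95.8 and 93.7). The remaining members, Il20ra, Il20rb, Il22ra1, Il24, Ifnlr1 and Tyk2, lay within the limits, with log2 ratios of 0.49, 0.48, 0.25, -0.06, -0.09 and -0.25.

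**Figure D4:**
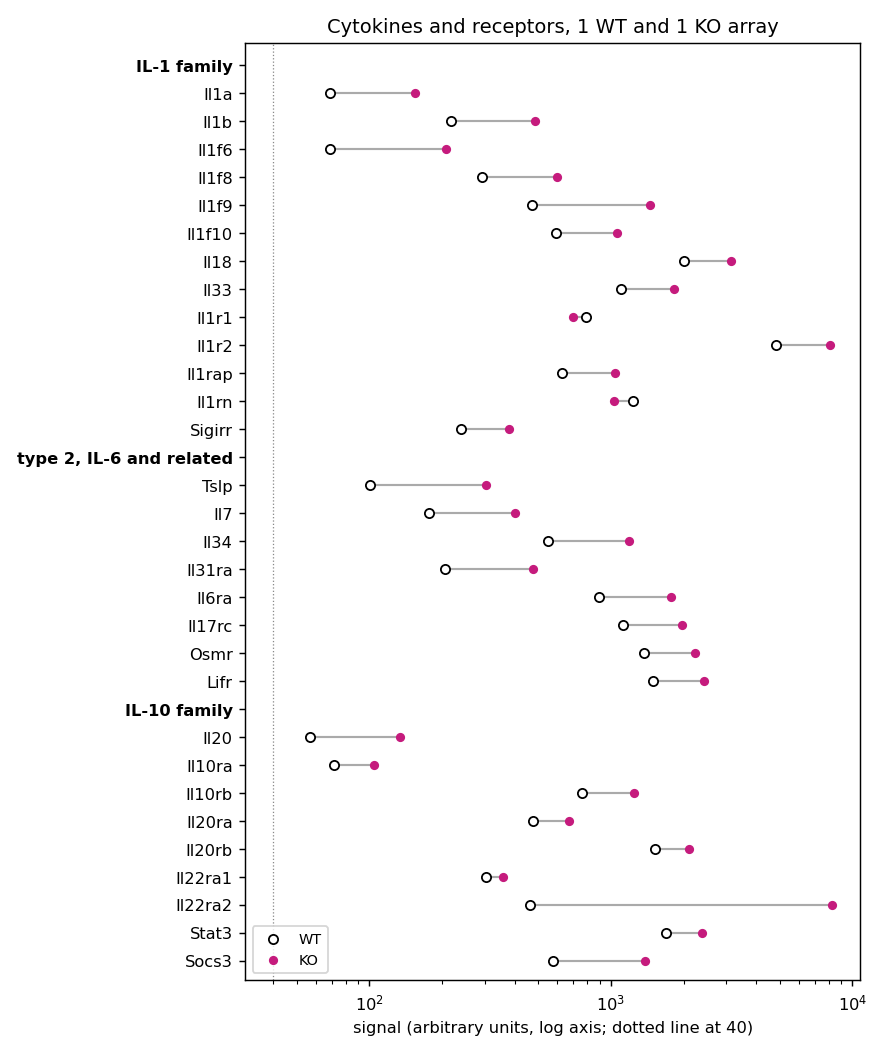
Signals of cytokine and receptor genes in the WT array (open circles) and the KO array (magenta), on a log axis in arbitrary units, with the limit of 40 dotted. Each pair is 1 gene and 1 array per genotype. Of the 30 genes drawn, Il1r1 and Il1rn had the lower signal in KO, and Il22ra2 had the widest gap (462 and 8229.6).

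Genes of type 2, IL-6 and IL-17 signaling showed receptors and epithelial ligands with few lymphocyte cytokines. Of 23 with a ratio 10 were higher and 1 lower. Tslp, the keratinocyte alarmin of atopic skin, read 100.4 and 303, and Il31ra, a chain of the itch cytokine receptor, 206 and 474. The T-cell survival factor Il7 read 176 and 402. Il34, which maintains Langerhans cells, was at 547 and 1184, while the Langerhans marker Cd207 was at 840.3 and 966 and was not called. Lymphocyte products were below 40 in both arrays, including Il4, Il5, Il13 and Il31, and Il17a reached 62.6 in KO from 24.2 in WT. These signals are too weak to give a ratio.

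Of 38 chemokine and receptor genes with a ratio 10 were higher and 3 lower. The B-cell attractant Cxcl13 read 159 and 1481, and Ccl20, an epithelial attractant of Ccr6-bearing cells, 222 and 604. Of the scavenging receptors Ackr1 (552 and 1578), Ackr2 (246 and 754) and Ackr4 (798 and 1871) were higher, and Ackr3 was not called (1942 and 2168). The interferon-induced Cxcl10 was lower (186 and 74.4), and Cxcl9 was read in WT alone (196 and 6.14). Of 40 interferon-stimulated genes with a ratio 8 were higher, such as Rsad2 (221 and 516), and the 1 lower was Cxcl10.

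Prostaglandin genes differed in direction along the pathway. The inducible cyclooxygenase Ptgs2 read 39.2 and 291, at least 7.27-fold higher against the limit of 40. The prostaglandin E synthase Ptges read 308 and 765, and the prostaglandin transporter Slco2a1 539.6 and 1280.5. The prostaglandin D synthase Ptgds was lower, at 3863 and 418 (log2 ratio -3.21, and -2.51 by another probe set). Over the list 3 of 25 genes were higher and 2 lower, close to the background in number.

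Growth factors of the EGF and FGF families included a few large differences. Epigen (Epgn), an EGF receptor ligand, read 454 and 2801, 6.17-fold higher, while Tgfa (1505 and 1057), Btc (1447 and 1840.1) and the receptor Egfr (3132 and 2339) were not called. Errfi1, a feedback inhibitor of the receptor, read 2578 and 7076. Of 17 FGF genes with a ratio 7 were higher and 1 lower. The dermal ligand Fgf7 (574 and 1045), the carrier Fgfbp1 (4556 and 10049) and the feedback inhibitors Spry1 (816 and 1817) and Spry2 (496 and 989.7) were among the higher ones. Fgf5, whose product ends hair growth, reached 40 in WT alone (137 and 28.2).

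Clock genes were often higher in KO. Of 17 with a ratio 9 were higher in KO and 1 lower, against backgrounds of 8.79% and 10.5%, and the list median was 0.61. The higher genes were the Per and Cry repressors, the nuclear receptor Nr1d2 and output factors, while the repressors Ciart (219 and 198) and Bhlhe40 (1146 and 1163) were not called. Per1 read 485 and 1207, Per2 146 and 369, Per3 220.1 and 417, Cry1 294 and 608, and Cry2 329 and 563. The output factors Dbp (502 and 1063), Tef (1419.7 and 2431) and Hlf (375 and 573) were higher as well. The activators that drive them were not called: Arntl read 779 and 749, Clock 1367 and 1498, and Npas2 179.8 and 183. Nfil3, which represses the targets of Dbp, was the lower gene (916 and 610.4). Other probe sets of Per2 and Per3 gave log2 ratios of 0.07 and -0.36. The sources used here do not give the hour at which skin was taken from each group, and its part in these values was not tested.

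Several glucocorticoid-responsive genes were higher in the same array. In the list of sex hormone and glucocorticoid response, which counts both kinds together, 8 of 18 genes were higher and none lower. Fkbp5, an immunophilin and a marker of glucocorticoid action, read 982 and 3611 (log2 ratio 1.88), and all its probe sets gave at least that. Zbtb16 read 411 and 1322, Tsc22d3, the leucine zipper induced by glucocorticoids, 3955 and 9709 (with 0.12 as the lowest log2 ratio of its probe sets), and Klf9 3644 and 8721. Per1 and Errfi1 are counted in this list too. The receptor Nr3c1 (2367 and 2753), the kinase Sgk1 (6584 and 7759) and the metallothionein Mt2 (13716 and 13832), also targets or parts of the response, were not called. Hsd11b1, which regenerates active glucocorticoid in tissue, was higher (618 and 996). Immediate early genes, which respond to handling and stress within minutes, were higher in 21 of 45 cases and lower in 3, and included Atf3 (207 and 1573) and Nr4a1 (495 and 3580.3). Heat shock genes were within the limits in 24 of 28 cases, with Hspa8 at 18804 and 17064.

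**Figure D5:**
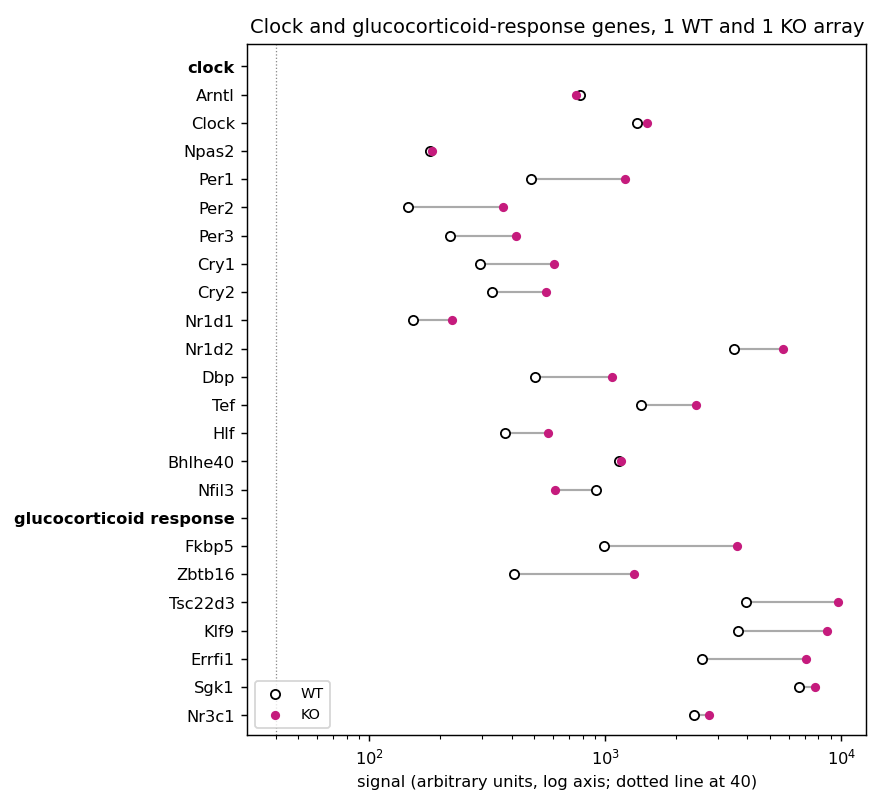
Signals of clock genes and glucocorticoid-response genes in the WT array (open circles) and the KO array (magenta), on a log axis in arbitrary units, with the limit of 40 dotted. Per, Cry, Dbp and Tef genes and Fkbp5, Zbtb16, Tsc22d3 and Klf9 read higher in KO, while the activators Arntl, Clock and Npas2 and the repressor Bhlhe40 coincided or nearly so (779 and 749 for Arntl).

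The E-box CACGTG, through which the Clock and Arntl proteins act, was in 5 of 17 clock promoters (29.4%), against 10.1% of genes with a ratio and 7.24% of all promoters. It reads the same on both strands. Similar shares held it in the sex hormone and glucocorticoid response list (4 of 14 promoters, 28.6%) and among immediate early genes (9 of 37, 24.3%). Cry1 and Tef are shown over the 150 bases before the start, with the E-box in capitals.
Cry1, chr10:85185055-85185204, reverse strand: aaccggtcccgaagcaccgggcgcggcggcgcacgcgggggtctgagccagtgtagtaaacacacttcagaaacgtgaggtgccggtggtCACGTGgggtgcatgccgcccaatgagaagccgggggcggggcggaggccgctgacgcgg
Tef, chr15:81802523-81802672, forward strand: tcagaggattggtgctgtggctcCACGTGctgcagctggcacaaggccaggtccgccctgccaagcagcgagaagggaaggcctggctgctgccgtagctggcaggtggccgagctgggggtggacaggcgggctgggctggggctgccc
The E-box began 60 bases before the start in Cry1 and 127 in Tef. Genes called higher held it in 9.20% of promoters and genes called lower in 7.50%.

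Among vessel, muscle and nerve lists, smooth muscle was the one with most of its genes higher. In the smooth muscle list 9 of 16 genes were higher and none lower, with a median log2 ratio of 0.64. Acta2, the actin of vessel walls and hair-erecting muscle, read 9096 and 14036, the smooth muscle myosin Myh11 1719 and 3138 (another probe set gave a log2 ratio of 0.10), calponin (Cnn1) 409.7 and 847, and Lmod1 83.2 and 250.1. Skeletal muscle, in contrast, was lower for 22 of 28 genes (Myl1 at 4753 and 411), so the lists of both muscle types differed in opposite directions. Lymphatic genes were higher in 6 of 12 cases and lower in 1: Lyve1, the hyaluronan receptor that macrophages also carry, read 378 and 1327, Reln 882 and 2309, Mmrn1 1279 and 2721, and the growth factor Vegfd 273 and 664. Blood vessel genes were higher in 8 of 31 and lower in 2, with Vwf at 320.1 and 615 and Aplnr, the apelin receptor, an exception at 501 and 54.01.

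Schwann cell genes had 5 of 18 members higher and 1 lower. Cdh19, a cadherin of Schwann cell precursors, read 334 and 1088, and the myelin basic protein gene Mbp 2556 and 4635. The lower member was the neuronal tubulin Tubb3 (342 and 64.4). Of 15 Merkel cell and neuropeptide genes with a ratio 3 were higher and 6 lower. Another 4 reached 40 in KO alone and 1 in WT alone. Proenkephalin (Penk), the opioid precursor, read 2017 and 6419.8, and adrenomedullin (Adm) 186 and 590.4. Galanin (Gal) read 1093 and 70.5 and Npy 222 and 96.4.

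Most macrophage, MHC class II and T and NK cell genes with a ratio were within the limits. Of 10 neutrophil genes with a ratio 3 were higher, among them Lcn2 (209 and 1282), and 1 lower. Another 4 of the 17 neutrophil genes measured reached 40 in KO alone, 1 in WT alone and 2 in neither. Of 30 macrophage genes with a ratio 23 were not called, among them Adgre1 (815 and 736) and Csf1r (4856 and 4582). Genes used as markers of resident, alternatively activated macrophages diverged: Clec10a read 873 and 1527, Arg1 1674 and 2649.8, and Retnla 2091 and 475, the last lower by 4.40-fold. Which cells of the bulk skin gave these 3 signals was not tested. MHC class II genes were within the limits in 17 of 19 cases, with H2-Aa at 15037 and 12526 and Cd74 at 8915 and 7973, and class I genes were higher in 2 of 8. Of the T and NK cell genes 15 of 18 were not called, with Cd3g at 667 and 867. Of 18 mast cell genes measured 9 had a ratio, and of these 5 were higher and 1 lower. Another 3 reached the signal limit in WT alone, 2 in KO alone and 4 in neither array, so the list did not differ in 1 direction. The mast cell protease Cpa3 read 744 and 1404 and Mcpt4 534 and 835, while Hdc, which makes histamine, reached 123 in KO from 6.85 in WT. Kit, the receptor that mast cells share with melanocytes, was lower (361 and 226), like 8 of 12 genes of the melanocyte list, to which it also belongs. The part of cell numbers in any of these values was not tested.

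Antimicrobial and stress genes were mixed. Of 20 antimicrobial genes with a ratio 6 were higher and 5 lower. The protease inhibitor Slpi read 164 and 565, and S100a9, a calprotectin subunit, 187 and 550.2, while its partner S100a8 was not called (982 and 815). S100a7l2, a relative of psoriasin, was 84.9-fold lower (4626 and 54.5), and the whey acidic protein family member Wfdc18 was lower as well (1223 and 155). The defensin Defb6, strong in both arrays, was not called (19090.4 and 22873). Of 36 genes of oxidative stress and detoxification 5 were higher and 5 lower, among them the glutathione peroxidases Gpx2 (817 and 211) and Gpx3 (4179.5 and 1299) and the epithelial metallothionein Mt4 (11991 and 3253) on the lower side. Aldehyde dehydrogenase Aldh3a1 was higher (2257 and 4444).

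Of the complement genes 3 of 17 were higher and 3 lower. The higher ones included Cd55 (735 and 1624) and Cd59a (1511 and 3082), which shield cells from complement, and the lower ones clusterin (Clu, 5106 and 2638). In the TNF list 6 of 28 genes were higher and 4 lower, with Tnfaip3, the brake on NF-kB, at 677 and 1377. Genes of DNA replication and mitosis were lower in 26 of 47 cases and higher in 0, with a median log2 ratio of -0.71. Inhibitors of the cell cycle and senescence genes were within the limits in 22 of 23 cases. Cdkn1c, the p57 inhibitor, was the higher one (303 and 665), and Cdkn1a, the p21 inhibitor, was not called (5322 and 6230.1).

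The dermal matrix was more often lower, in 19 of 56 genes against 7 higher. Collagens were lower in 14 of 30 cases and higher in 2, and the 2 higher ones were the epidermal Col17a1 and the transmembrane Col23a1 (296 and 574). Col14a1, a fibril-associated collagen, read 471 and 72.00, the lowest ratio among them. Tenascin C (Tnc) read 779 and 79.8 (log2 ratio -3.29), and the elastic fiber protein Mfap4 1970.1 and 498. The matricellular gene Ccn1 read 770.1 and 3996, with log2 ratios from 0.92 to 2.38 over its probe sets, and Ccn3 75.97 and 184, so that these members of the matrix list were higher. Adipocyte genes were also lower in the KO array, 11 of 24 with 1 higher, and Fabp4, the fatty acid carrier of fat cells, read 15268 and 4731. How much fat and muscle remained on each piece of skin, and its part in the matrix values, was not tested. Of 29 matrix proteases and inhibitors 1 was higher and 8 lower: Mmp3 read 7186 and 2609, and the gelatinase Mmp2 7039.8 and 6607.

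Genes of Wnt and BMP signaling, which hair growth depends on, included several that were strongly lower. Lef1, the nuclear partner of beta-catenin, read 972 and 186, Wnt11 543 and 144, Bambi 2001 and 339.6 and Gdf10 379.6 and 55.8. The Wnt target Axin2 was not called (568 and 706), and 25 of 34 Wnt receptors, antagonists and targets lay within the limits. In the BMP and TGF-beta list 6 of 43 genes were higher and 7 lower, with a median log2 ratio of 0.05. The receptors Tgfbr2 (5329 and 9608) and Tgfbr3 (2988 and 6844) were higher, and Tgfbr1 was not called (1722 and 1597). Of 18 vitamin A genes 3 were higher and 5 lower, and they included Stra6, the retinol transporter (178 and 42.4), and Cyp26b1, which degrades retinoic acid (1304 and 2416).

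Genes of TRP channels, other calcium channels and calcium pumps were lower in 9 of 30 cases and higher in 4, and 9 more reached 40 in WT alone. The higher ones were the channel subunit Cacna2d2 (163 and 327), Trpm3, and the intracellular release channels Itpr2 and Itpr3 (2269 and 3562). Trpv6, the epithelial calcium channel, read 360.2 and 49.3, and Trpv4 248 and 139.8. Orai1, which the calcium sensor Stim1 opens, was at 655 and 946 and was not called. In a list of 17 growth factor and skin aging genes that the study itself followed, which is therefore no independent choice, 2 of 15 with a ratio were higher, Klk5 and Ccn2 (2227 and 3556), and 6 lower. The lower ones were Col1a1 (16664 and 5880.4), Col18a1 (1115 and 547), Tgfb2 (634 and 362), Wnt5a (1163 and 514), Trpv4 and Trpv6. The members not called were Col1a2, Pdgfb, Tgfb1, Tgfb3, Klk7, Wnt7a and Fgf1, with log2 ratios from -0.33 for Fgf1 to 0.45 for Pdgfb. Tert stayed under 40 in both arrays.

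Housekeeping machinery was mostly within the limits. Of 81 respiratory chain genes with a ratio 78 were not called and 3 were lower, and those 3 were isoforms typical of muscle or brown fat, Cox6a2 (474 and 259), Cox7a1 (179.5 and 46.4) and Cox8b (1058 and 420.0). All 37 proteasome genes with a ratio lay within 1.5-fold. Among 48 cytosolic ribosomal proteins 46 did, with a median log2 ratio of 0.11. The exceptions were Rps27 (136 and 418) and the muscle form Rpl3l (100.3 and 52.9). Cholesterol synthesis genes were within the limits in 21 of 22 cases.

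Genes of the liver and of serum proteins differed in both directions, and many reached 40 in KO alone at low level. Of 51 measured, 17 reached 40 in KO alone and 1 in WT alone, and of the 17 with a ratio 7 were higher and 3 lower. Albumin (Alb) read 77.1 and 334, the protease inhibitor Serpina1c 60.2 and 205, hemopexin (Hpx) 57.4 and 157, and Apoa2 20.9 and 179.7. Over all genes 543 reached 40 in KO alone and 855 in WT alone, the reverse order. Liver genes that were under 40 in both arrays included Ahsg, Ambp and Apoa4, and Fabp1 read 15.4 and 30.9 and stayed under it. Transthyretin (Ttr), which the choroid plexus and other tissues also make, read 4.17 and 1594 by its chosen probe set, and 2 others with 40 in both arrays gave log2 ratios of 3.75 and 4.69. The 3 lower genes were haptoglobin (Hp), an acute phase protein that binds hemoglobin, at 2724 and 249, the retinol carrier Rbp4 at 399 and 183, and Fetub at 63.5 and 42.3. The haptoglobin ratio (log2 -3.45) was the farthest from 0 among members with a ratio. The erythroid heme enzyme Alas2 was higher (77.7 and 495), the hemoglobin gene Hba-a2 was not called (372 and 472), the hemoglobin gene Hbb-b2 was higher (48.4 and 127), and the red cell anion exchanger Slc4a1 was lower (394 and 127). Whether another tissue contributed to the KO pool was not tested.

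Several of the highest ratios belonged to genes of no list. Ap1s3, a subunit of a clathrin adaptor, read 87.04 and 968, and the crystallin Crygn 87.5 and 735. Cyp3a13, a cytochrome P450, read 131 and 623, the transcription factor Cebpd 1090.2 and 5134, and Pam, which amidates neuropeptides, 620.5 and 2747. Tac4, the precursor of hemokinin, read 63.9 and 276, and the glycosyltransferase Galnt15 169 and 763. Ppfia4 was in this set by 1 probe set (58.98 and 261), and another of its probe sets gave a log2 ratio of 0.05.

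On chromosome 1, around the targeted locus, most neighbours of Il10 with a ratio were not called. Mapkapk2, Eif2d, Rassf5 and Ikbke, on one side, had log2 ratios of 0.15, 0.07, 0.03 and 0.06, and Dyrk3, on the same side, read 81.7 and 22.4. On the other side Il24 was not called, Il20 was higher as given above, Fcmr read 42.97 and 5.74 and Pigr 36.3 and 99.2, all weak, and Il19 was not analysed here. The share of genes called on chromosome 1 was 10.6% higher and 10.6% lower of 729 genes, and across chromosomes the shares ran from 5.74% (X) to 11.5% (chromosome 3) for higher and from 8.12% (chromosome 18) to 11.3% (chromosome 19) for lower.

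The third array of the series held skin of KO mice fed 8% eggshell membrane powder (pESM), and its signals are set beside the other ones for a few genes, with the diet differing. Krt25 read 21.4 there and Gjb2 149, beside 51.5 and 148 in the KO array and 31928 and 7891 in WT. The skeletal muscle genes Myh4 and Myl1 read 3926 and 5735, beside 4309 and 4753 in WT and 217 and 411 in KO. Per2, Fkbp5 and Il1f9 lay between, at 206, 2150.0 and 866, and so did Lce1i at 6361 and Lyve1 at 711. Ap1s3, at 1230.3, exceeded both other arrays. With 1 pool each, no difference between these arrays was tested.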

How the data were processed

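RNA of back skin was hybridised to GeneChip Mouse Genome 430 2.0 arrays, 1 array per group, each with 250 ng of RNA pooled from the mice of that group. The sources used here do not say which mice entered each pool. The deposited values are intensity signals on a linear scale, 1 per probe set, which the authors computed with the MAS5 method, and tested on the values here each array had a mean of 500 after trimming 2% of probe sets at each end. Of 45101 probe sets, 64 control probe sets were left out, 34945 had 1 gene symbol, 932 had several and 9160 had none. The gene symbols came from the platform annotation and were updated through the gene ID for 34741 probe sets. Of several probe sets of a gene, the one with the highest mean signal over the 3 arrays was used. Ratios (KO over WT) were formed for genes with at least 40 in both arrays, and 1.5-fold was the limit for higher or lower. A gene under 40 in 1 array has a bound only, computed against 40. With 1 array per group no test was run, and the number of arrays limits the precision.

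The members and gene lists were chosen with earlier results of these data known. The genes named were drawn from those with the 25 highest and 25 lowest ratios, the 15 strongest read in 1 array alone, 4 of each list by signal, by highest and by lowest ratio, Il10 with 5 neighbours on each side, and all members of the IL-10 family, reference and study lists. Outside this rule, and after their values were seen, the text also names Ackr4, Adgre1, Ahsg, Ambp, Apoa4, Arg1, Axin2, Btc, Car6, Ccl20, Corin, Cry2, Cryba4, Cxcl9, Fabp1, Fgf5, Flg, Hlf, Hrnr, Hsd11b1, Il13, Il17a, Il1f8, Il31, Il4, Il5, Krt82, Krtap3-1, Mmp2, Myh11, Npas2, Nr3c1, Orai1, Padi1, Padi3, Per3, Sprr1b, Sprr2d, Tchhl1 and Tgfbr1. The alternatives were other scalings, signal limits, a fold limit of 2, floors, other summaries of probe sets, and probe sets in place of genes. Promoter sequences were those of RefSeq on GRCm38.p6. The calculations, tested on simulated data, used Python 3.11.15 with numpy 2.4.6 and pandas 2.3.3, R 4.3.3 with limma 3.58.1 for quantile and loess normalization, and matplotlib 3.10.9.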

Additional observations from a re-analysis of the deposited data

How the results depend on the processing

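No paired analysis was possible because each group has 1 array, and for the same reason no array could be left out. The counts of 1151 higher and 1371 lower genes became 719 and 571 with a signal limit of 200, 317 and 547 with a fold limit of 2, and 2229 and 4091 with probe sets in place of genes. Other settings kept both counts within 1.5 times. The share of called genes that were higher, 45.6%, turned to a majority under quantile normalization (59.7%), cyclic loess (54.3%) and a signal limit of 200 (55.7%), and was 35.3% over probe sets. The median log2 ratio of the red blood cell list was -0.65 with a signal limit of 100, where few of its genes are left, and the log2 ratio of Cfp was 0.052 as a mean over its probe sets, each opposite in sign to the value otherwise used. Changes of sign were counted only for values of at least 1.5-fold. Across the alternatives, 29 values of list medians and 167 ratios of named genes moved by the technical SD or more. By the same measure 670 and 6698 stayed within it. The called genes that the limit of 200 leaves out were more often lower than higher, as the counts above show. Why the scaling turns the majority was not tested. Weak signals limit the comparison, since probe sets of 1 gene differed more where signals were low, and pools show no spread between mice.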
